A study of Homo sapiens with 60 samples.

Results

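Plasma proteins made by the liver were followed here through the mRNA of 39 genes in HepG2, a line derived from a human hepatocellular carcinoma. The genes were chosen by name from the 60675 Ensembl identifiers of the deposited table, and all 39 were found with 1 identifier each. No rule on their values was used, but earlier results of these data were known when they were chosen. They were described in 4 groups. There were 11 carriers and other transport proteins, 7 protease inhibitors and matrix-binding proteins, 17 genes of coagulation and fibrinolysis, and 4 complement genes. All 39 passed the filter on low counts, so each was among the 16692 genes tested.

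The cells were exposed for 24 h to 70% ethanol extracts of 8 preparations at 500, 100 or 20 µg/mL, or to the vehicle dimethyl sulfoxide (DMSO). Single drugs made up 6 of them: Astragali Radix (Astragalus in what follows), Cinnamomi Cortex (Cinnamon), Cnidii Rhizoma (Cnidium), Rehmanniae Radix Preparata (Rehmannia), Angelicae Gigantis Radix (Angelica) and Paeoniae Radix (Paeonia). The other 2, Sagunja-tang and Samul-tang, were mixed formulas. Vehicle and each dose of Cnidium, Rehmannia, Astragalus and Cinnamon had 3 libraries, each dose of Angelica, Paeonia and Sagunja-tang had 2, and each dose of Samul-tang had 1, giving 60 libraries in 25 groups. The labels give the vehicle as 0.1% DMSO and the series text as 2%. That text also says that lower doses replaced the standard ones for the more toxic extracts, but every label used here gives the standard doses. HepG2 is a single tumour line grown without other liver cells or plasma, and the labels do not say whether replicates were separate cultures, so p-values measure the spread between these libraries, which may be technical.

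Hepatocytes release most of the proteins of blood plasma. Albumin and the smaller carriers transport hormones, lipids, metals and haem; inhibitors of the serpin and inter-alpha-inhibitor families restrain proteases; the coagulation factors activate one another in a cascade that ends when thrombin turns fibrinogen into fibrin; and complement proteins tag microbes and amplify inflammation. Their genes are driven by liver transcription factors such as HNF4 and the C/EBP proteins, and during an acute phase response interleukin-6 raises some of them and lowers others. Alpha-fetoprotein, the fetal counterpart of albumin, is kept on in HepG2 cells.

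The libraries held expected counts totalling 21485865 to 34643018. Levels are given as CPM, edgeR's depth-scaled count, with library sizes adjusted by the trimmed mean of M values (TMM). The 10 hepatocyte markers all had a median of at least 1 CPM. They summed to 55700 to 57189 CPM in vehicle and to 40750 to 53695 with Astragalus at 500 µg/mL. ALB, AFP, TTR and SERPINA1 among them are also members, so this list is not independent of the genes described. Of the defining markers of other liver cells, PTPRC (leukocytes) was at 0 CPM in every library and KRT7 (bile duct cells) reached at most 0.0716 CPM, but the other 3 bile duct markers were present, with vehicle means of 50.7 CPM for KRT19, 141 for SOX9 and 118 for EPCAM. The summed immune markers ran from 49.4 to 52.9 CPM in vehicle and from 153 to 174 with Astragalus at 500 µg/mL, and 3 of the 4 were below 1 CPM, the remaining one being the lysosomal gene CD68. Bile duct markers summed to 308 to 314 CPM in vehicle and to 432 to 469 with Astragalus at 500 µg/mL. Fibroblast and stellate markers summed to 6.28 to 6.89 CPM in vehicle and to 15.6 to 19.5 with Astragalus at 500 µg/mL, of which PDGFRB made up most (vehicle mean 6.37, highest library 19.4 CPM), while DCN was at 0 CPM in every library. Endothelial markers summed to at most 3.32 CPM. Replicate 1 of Rehmannia at 20 µg/mL stood apart, with a chi-square per degree of freedom of 63.22 and 38.98 against replicates 2 and 3, which differed from each other by 7.72, and 11.0% of its counts were mitochondrial against 18.9% and 16.7%. In GENCODE 29 antisense genes overlap A1BG, AHSG, FETUB, KNG1, F10, F11 and ITIH4, and other models on the same strand overlap CFB, CFI, SERPINA3, SERPINA5 and VTN. The strand setting of the counting is not given in the sources used here, so reads of these genes and their overlapping partners cannot be told apart.

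The 3 fibrinogen chains are shown by their promoters because they form 1 protein, lie side by side on chromosome 4 and, as described below, all fell at 500 µg/mL in 4 extracts. The windows come from RefSeq on GRCh38.p14 and are printed from 250 bases upstream to the base before the start of transcription, on the gene's own strand. Capitals mark the letters CTGGGAA, searched for as the core of the interleukin-6 response element, or their reverse complement, which FGB and FGG hold. FGA holds no match to all of these letters, but its window holds ctggga followed by t, left in small letters. The missing full match does not show that FGA lacks the element.
FGA, minus strand, chr4:154590743-154590992: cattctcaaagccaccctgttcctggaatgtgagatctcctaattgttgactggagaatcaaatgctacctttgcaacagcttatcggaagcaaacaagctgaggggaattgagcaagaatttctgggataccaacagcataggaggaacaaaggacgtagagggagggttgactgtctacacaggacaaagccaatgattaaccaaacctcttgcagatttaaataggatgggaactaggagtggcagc
FGB, plus strand, chr4:154562730-154562979: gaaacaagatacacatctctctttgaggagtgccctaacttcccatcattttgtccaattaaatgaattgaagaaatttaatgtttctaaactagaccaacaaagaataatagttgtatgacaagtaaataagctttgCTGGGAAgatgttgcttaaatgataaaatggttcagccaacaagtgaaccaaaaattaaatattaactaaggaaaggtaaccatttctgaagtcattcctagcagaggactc
FGG, minus strand, chr4:154612657-154612906: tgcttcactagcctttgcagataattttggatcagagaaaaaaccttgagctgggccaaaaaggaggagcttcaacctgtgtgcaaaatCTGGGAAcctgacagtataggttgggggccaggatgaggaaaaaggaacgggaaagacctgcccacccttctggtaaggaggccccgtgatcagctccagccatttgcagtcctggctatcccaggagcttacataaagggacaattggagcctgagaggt
33 of the 39 genes had a window of 300 bases, which also takes in 50 bases after the start. On either strand CTGGGAA was in 8 of those 33 windows (24.2%) and in 11% of all 27305 windows. The letters TTCNNNGAA, a STAT motif, were in 10 (30.3% against 7.88%), TTGCNNAA, a C/EBP motif, in 8 (24.2% against 10.6%), and the TATA box TATAAA on the sense strand in 4 (12.1% against 7.71%). Matches of different motifs may overlap and describe letters only.

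In vehicle the most abundant members per length were carriers. Divided by the length of each gene's principal transcript, AFP stood at 5179 ± 51.7 CPM per kb (SD, n = 3) and ALB at 4962 ± 146, with ranges that met. SERPINA1, alpha-1-antitrypsin, followed at 2900 ± 58.6, then FGG at 1114 ± 117 and AHSG, fetuin-A, at 1023 ± 14.1, again with overlapping ranges. On these lengths FGA at 698 ± 25.4 and FGB at 305 ± 7.66 were lower than FGG. The FGA value rests on a principal transcript of 3678 bases, against 1760 for FGG, and a shorter form would raise it. Before division FGA was above FGG, at 2674, 2524 and 2503 against 2177, 1768 and 1935 CPM. The order of FGA and FGG per length therefore depends on the transcript model. C3, the central complement protein, stood at 439 ± 8.78 CPM per kb and CFB, the factor B protease, at 57.6 ± 0.879. Prothrombin, F2, was at 108 ± 6.77, while F7, the factor that starts coagulation with tissue factor, was at 6.11 ± 0.286 and KNG1, kininogen, at 4.63 ± 0.105. The lowest were FETUB at 1.63 ± 0.213 and ITIH4 at 0.405 ± 0.0912. TF, transferrin, was left out of this scale because its principal transcript model is 20602 bases and would set its level.

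**Figure D1:**
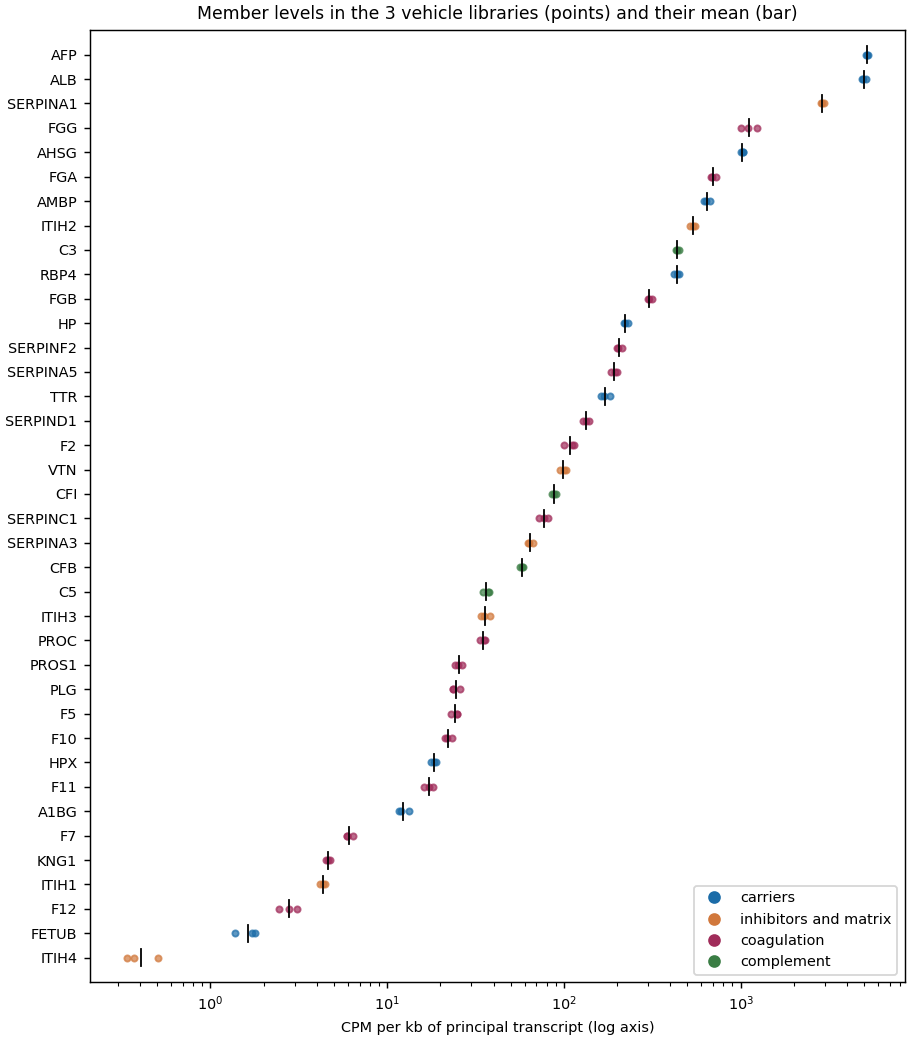
Level of 38 of the 39 genes in the 3 vehicle libraries, in CPM per kb of principal transcript on a log axis (points: libraries; bars: means; TF left out). AFP and ALB lead at 5179 and 4962, and ITIH4 is lowest at 0.405.

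Over all 60 libraries ALB ran from 6717 to 12790 CPM (median 10646) and AFP from 5537 to 15227 (median 13843). SERPINA1 ran from 9140 to 17172 CPM (median 12790), RBP4 from 424 to 713 (median 579) and F2 from 204 to 299.6 (median 231). Together the 39 genes took 5.87% ± 0.0265 (SD, n = 3) of all counts in vehicle. At 500 µg/mL the share was 4.12% ± 0.3 with Astragalus (n = 3), 5.06% ± 0.131 with Cnidium (n = 3) and 5.16% ± 0.0919 with Sagunja-tang (n = 2), below every library of the same extract at 20 µg/mL, where the means were 6.39% ± 0.118, 6.08% ± 0.262 and 6.21% ± 0.0424. With Cinnamon it was 6.04% ± 0.1 at 500 and 6.47% ± 0.142 at 20 µg/mL. In each of the 7 extracts with replicates every library at 500 µg/mL had a lower share than every library at 20 µg/mL, which is given as a description without a test. Transcripts of the mitochondrial genome moved with the dose of Astragalus, from 16.1% ± 1.36 of counts at 20 to 25.8% ± 1.45 at 500 µg/mL, against 14.2% ± 0.932 in vehicle. Of the counts outside that genome the members took 7.62% ± 0.101 and 5.55% ± 0.433 at those doses, so the Astragalus share was lower by this measure too. The immune (CD68), bile duct and fibroblast marker sums and the mitochondrial share were higher at 500 µg/mL of Astragalus than in vehicle. The hepatocyte marker sum, which includes members, was lower. The part of these shifts in the changes described next was not tested. In bulk RNA a lower level per cell and fewer cells holding the transcript cannot be told apart.

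**Figure D2:**
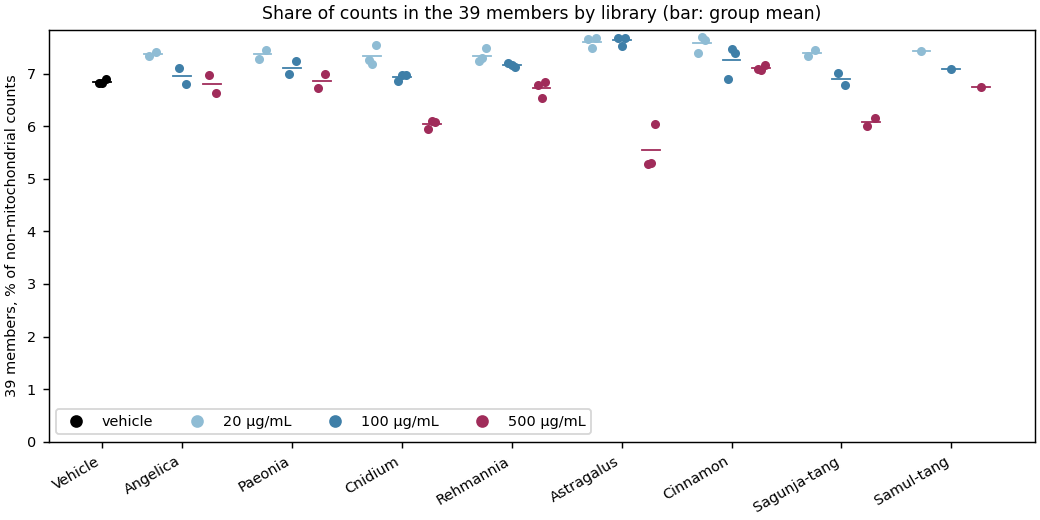
Share of the 39 genes in the non-mitochondrial counts of each library, in percent, by extract and dose (points: libraries; bars: group means; Samul-tang has 1 library per dose). The lowest mean is 5.55% with Astragalus at 500 µg/mL, and the vehicle mean is 6.85%.

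The first question was how the members changed from the lowest to the highest dose of the same extract, which share a code prefix in the labels. Changes are log2 fold changes ± SE from edgeR's quasi-likelihood test, and a gene was called at a Benjamini-Hochberg adjusted p below 0.05 over all genes tested. With Cnidium 27 of the 39 members fell and 0 rose (18.4% of all genes called, 9.56% higher and 8.83% lower). With Sagunja-tang 22 fell and 1 rose (10.4% of all genes called, 5.70% higher and 4.73% lower). The median change of the members was −0.25 with Cnidium and −0.31 with Sagunja-tang, beside 0.00 over all genes in each. With Paeonia 16 fell and 5 rose (30.6% of all genes called, 16.8% higher and 13.9% lower), with a median of −0.09. Fewer members changed with the other 3 extracts. With Rehmannia 9 fell and 0 rose (1.41% of all genes called, 0.785% higher and 0.623% lower), with Angelica 7 fell and 0 rose (1.05% of all genes called, 0.443% higher and 0.611% lower), and with Cinnamon 3 fell and 0 rose (0.809% of all genes called, 0.264% higher and 0.545% lower).

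Astragalus gave the largest single changes, but 69.5% of all genes were called in that comparison, and the share of members called, 28 of 39, was near it. Of the members 19 fell, where 35.3% of all genes did, and 9 rose, where 34.2% did. The split depended on the scaling. Scaled by total counts, which moved the median of all genes from −0.02 to −0.32, 28 members fell and 3 rose. The 3 rises that remained were AHSG (0.42), VTN (0.45) and AMBP (0.26). By group, the median Astragalus change was 0.04 for carriers, 0.26 for inhibitors and matrix proteins, −0.64 for coagulation genes and −0.82 for complement genes.

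**Figure D3:**
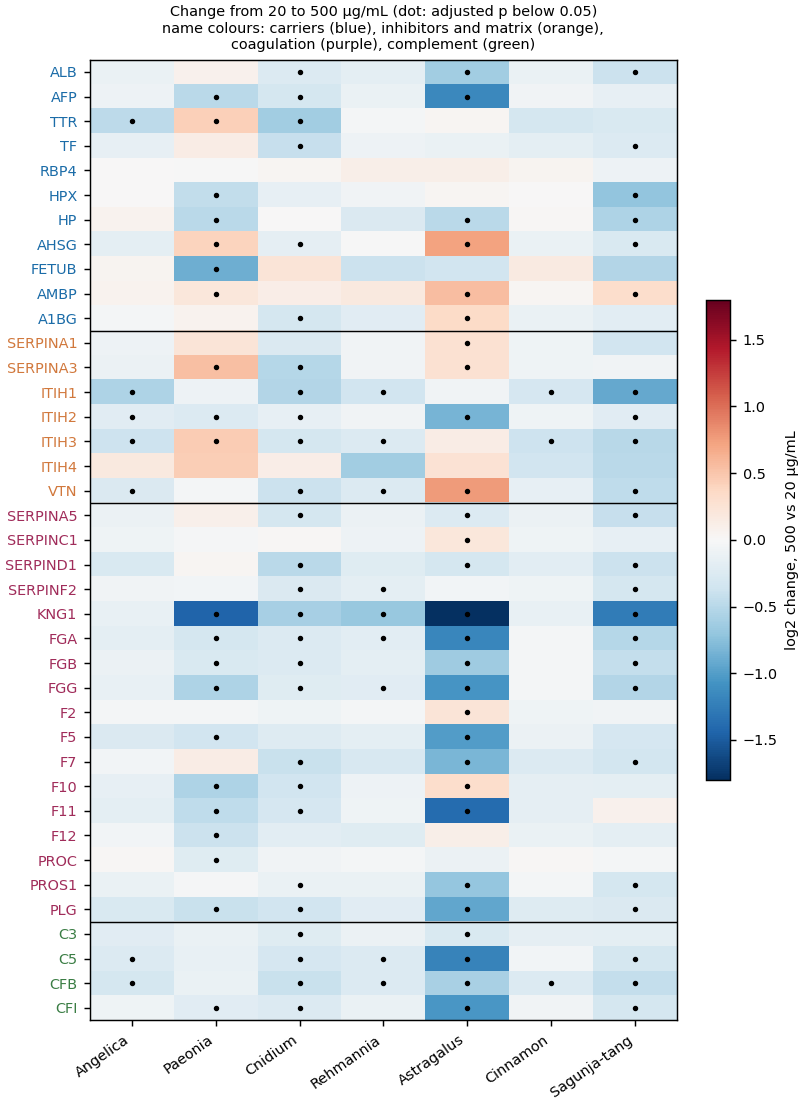
Log2 change from 20 to 500 µg/mL of the 39 genes in the 7 extracts with replicates; blue is lower and red higher at 500 µg/mL, and a dot marks an adjusted p below 0.05. KNG1 has the darkest blue, down to −1.80 with Astragalus, and CFB carries a dot in 6 of the 7 columns.

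Among the carriers AFP and ALB fell with Astragalus while AHSG and AMBP rose. AFP was at 14746, 14191 and 14660 CPM at 20 µg/mL and 5537, 5940 and 8006 at 500 µg/mL, and fell by 1.16 ± 0.06. The libraries did not overlap, and replicate 3 at 500 µg/mL was the highest of its group for both AFP and ALB. ALB, which binds fatty acids and drugs, went from 12643, 12281 and 12133 to 6717, 7409 and 9938 CPM and fell by 0.62 ± 0.07. AHSG, an inhibitor of calcification, went from 2007, 1911 and 1966 to 3307, 3340 and 3048 CPM and rose by 0.72 ± 0.06. AMBP, the precursor of alpha-1-microglobulin and bikunin, rose by 0.56 ± 0.06. A1BG, a plasma glycoprotein of little known function, rose by 0.35 ± 0.10 but was at 0.05 with total-count scaling (adjusted p = 0.72). ALB also fell by 0.38 ± 0.09 with Sagunja-tang. With Cnidium its change was −0.25 ± 0.07, with an adjusted p of 0.087 without replicate 1 at 500 µg/mL and 0.073 without replicate 3 at 20 µg/mL. TF, which carries iron, fell by 0.41 ± 0.06 with Cnidium. With total-count scaling carriers in Astragalus at 500 µg/mL that had not been called also changed sign, among them TTR (0.04 ± 0.08 by TMM, −0.26 by total counts).

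TTR, the carrier of thyroxine and of the retinol-binding protein, moved in opposite directions between extracts. With Paeonia it was at 236 and 211 CPM at 20 µg/mL and 297 and 304 at 500 µg/mL, and rose by 0.43 ± 0.10. With Cnidium it was at 179, 200.5 and 202 and then 123, 125 and 129 CPM, and fell by 0.63 ± 0.08. With Angelica it went from 204 and 190.3 to 139 and 145 CPM and fell by 0.47 ± 0.10, though without Angelica replicate 2 at 500 µg/mL the adjusted p was 0.17, without replicate 2 at 20 µg/mL 0.12, and without replicate 3 at 20 µg/mL 0.052. RBP4, the retinol carrier that TTR holds in plasma, was called in none of the 7 extracts, with changes from −0.09 to 0.11. Its 95% interval was −0.03 to 0.25 with Astragalus. With Rehmannia RBP4 was at 424, 597 and 579 CPM at 20 µg/mL, the first being the library that stood apart, and its change was 0.11 ± 0.07 with that library and −0.03 without it. TTR was likewise at 147, 225 and 217 CPM there, and its Rehmannia change was −0.03 ± 0.08 with and −0.20 without that library, called in neither case. The haem carrier HPX fell by 0.71 ± 0.12 with Sagunja-tang, from 23.8 and 24.6 to 15.1 and 14.5 CPM. The haemoglobin-binding HP fell by 0.55 ± 0.09 with Sagunja-tang, fell by 0.49 ± 0.09 with Paeonia and fell by 0.48 ± 0.07 with Astragalus, and its reads may be shared with the near-identical neighbour HPR. FETUB, fetuin-B, fell by 0.88 ± 0.23 with Paeonia, but without Paeonia replicate 2 its adjusted p was 0.062 (500 µg/mL library left out) or 0.13 (20 µg/mL). With Sagunja-tang the only member that rose was AMBP, by 0.32 ± 0.08, and its adjusted p was 0.065 without replicate 1 at 500 µg/mL and 0.071 without replicate 2 at 20 µg/mL.

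Of the inhibitors and matrix proteins the inter-alpha-inhibitor heavy chains ITIH1, ITIH2 and ITIH3, which become bound to hyaluronan, each fell in 5 extracts. The ITIH3 fall with Rehmannia had an adjusted p of 0.14 or 0.052 without replicate 1 or 3 at 20 µg/mL. It was 0.086 or 0.1 without replicate 1 or 2 at 500 µg/mL. The ITIH3 call with Angelica rested on replicate 2 at 20 µg/mL (−0.33 without it) and replicate 3 at 500 µg/mL (−0.27 without it). ITIH1 with Sagunja-tang was at 12.3 and 13.1 CPM at 20 and 6.83 and 6.58 at 500 µg/mL, and fell by 0.92 ± 0.09. ITIH1 also fell by 0.53 ± 0.07 with Cnidium, from 12.8, 13.3 and 14.6 to 9.23, 9.06 and 9.92 CPM. ITIH2, the most abundant of them, fell by 0.84 ± 0.04 with Astragalus, from 2127, 1949 and 2028 to 1057, 1102 and 1256 CPM. Its smaller falls were less firm. With Angelica the ITIH2 call rested on every library of both doses, the change being −0.19 to −0.23 with 1 left out. With Cnidium (−0.15 ± 0.04) the adjusted p was 0.064 and 0.06 without replicate 3 at 500 or 20 µg/mL, with Sagunja-tang (−0.20 ± 0.05) it lay between 0.055 and 0.092 without replicate 1 at 20 µg/mL or replicate 2 at either dose, and total counts gave 0.057. ITIH3 rose by 0.46 ± 0.07 with Paeonia, the only extract in which it rose, and it fell by 0.37 ± 0.06 with Cinnamon. ITIH4, at most 2.28 CPM in any library, was called in no extract, with changes from −0.63 to 0.44.

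VTN, vitronectin, an adhesive protein of plasma and matrix, rose with Astragalus and in none of the other 6 extracts. Its level was 211, 215 and 211 CPM at 20 µg/mL and 395, 355 and 326 at 500 µg/mL, and it rose by 0.76 ± 0.05. In contrast VTN fell by 0.38 ± 0.05 with Cnidium, from 208, 201 and 207 to 162, 157 and 154 CPM, and fell by 0.46 ± 0.06 with Sagunja-tang. The acute-phase serpin SERPINA3 rose by 0.54 ± 0.09 with Paeonia, from 216 and 204 to 294 and 315 CPM, and fell by 0.52 ± 0.07 with Cnidium. SERPINA1 rose by 0.28 ± 0.10 and SERPINA3 rose by 0.28 ± 0.07 with Astragalus, but both turned to −0.03 when scaled by total counts. The SERPINA1 call also ended without Astragalus replicate 1 at 500 µg/mL (adjusted p = 0.084) or replicate 3 (adjusted p = 0.054).

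The coagulation genes were led by fibrinogen and kininogen. FGA with Astragalus was at 2930, 2726 and 2805 CPM at 20 µg/mL and 1168, 1289 and 1312 at 500 µg/mL, 2.24-fold lower, and fell by 1.17 ± 0.04. FGB went from 689, 639 and 667 to 369, 397 and 513 CPM and fell by 0.64 ± 0.06, and FGG from 2215, 2062 and 2105 to 992, 1015 and 1060 CPM and fell by 1.06 ± 0.06. In each chain the groups were apart, and FGB fell least. With Sagunja-tang the changes were −0.51 ± 0.05 for FGA, −0.43 ± 0.07 for FGB and −0.53 ± 0.07 for FGG, and with Cnidium −0.24 ± 0.04, −0.25 ± 0.06 and −0.22 ± 0.06, all of them called. With Paeonia FGG fell by 0.56 ± 0.07 and FGA and FGB changed by −0.31 ± 0.05 and −0.27 ± 0.07, also called. With Cinnamon none was called, and the interval for FGA was −0.13 to 0.05. The promoters of FGB and FGG printed above each hold CTGGGAA or its complement. That of FGA holds no full match in its window, but has ctggga followed by t.

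KNG1, from which kallikrein cuts bradykinin and which lies at chr3:186717276-186744410 on GRCh38, had the largest fall of any member in Astragalus, Paeonia, Sagunja-tang and Rehmannia. Its level per library was 11.5, 10.6 and 11.6 CPM at 20 and 2.80, 3.40 and 3.41 at 500 µg/mL of Astragalus, 3.49-fold lower. With Paeonia it was 11.6 and 11.5 and then 4.43 and 4.11 CPM, and with Sagunja-tang 9.88 and 10.3 and then 4.23 and 4.19 CPM. In these 3 extracts no library at 500 µg/mL reached the lowest at 20 µg/mL. KNG1 fell by 1.80 ± 0.10 with Astragalus (adjusted p = 7.2e-21), fell by 1.44 ± 0.11 with Paeonia (adjusted p = 1.2e-13) and fell by 1.26 ± 0.11 with Sagunja-tang (adjusted p = 1.6e-11). It also fell by 0.60 ± 0.08 with Cnidium and fell by 0.68 ± 0.09 with Rehmannia, where the adjusted p was 0.068 when the Rehmannia groups were fitted alone. The changes with Angelica and Cinnamon were −0.14 ± 0.10 and −0.14 ± 0.08, with intervals of −0.35 to 0.06 and −0.30 to 0.02. The other contact factors went separate ways in Astragalus. F11 fell from 49.2, 49.6 and 54.6 to 15.4, 17.9 and 24.9 CPM, a change of −1.39 ± 0.10, and F12 was at 0.10 ± 0.11 and not called. With Sagunja-tang F11 was not called at 0.08 ± 0.11. AHSG (chr3:186612923-186621318) and FETUB lie just upstream of KNG1 on the same strand, and with Astragalus the neighbours differed in direction: AHSG rose by 0.72 ± 0.06, FETUB was not called at −0.35 ± 0.17 and KNG1 fell.

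Of the factors that need vitamin K for their carboxylation, prothrombin F2 changed by −0.08 to 0.23 over the 7 extracts. It rose by 0.23 ± 0.06 with Astragalus, and was at −0.07 when scaled by total counts. F7 fell by 0.82 ± 0.10 with Astragalus, from 18.4, 20.4 and 21.3 to 10.7, 10.4 and 12.6 CPM, and fell by 0.40 ± 0.09 with Cnidium. Its neighbour F10, the factor that converts prothrombin, fell by 0.56 ± 0.08 with Paeonia, from 33.1 and 36.7 to 23.6 and 23.9 CPM, and was at 0.32 ± 0.06 with Astragalus by TMM and 0.02 by total counts. PROS1, protein S, fell by 0.69 ± 0.04 with Astragalus, whereas PROC, protein C, was not called there at −0.11 ± 0.05. F5, the cofactor of F10, fell by 1.00 ± 0.10 and PLG, plasminogen, fell by 0.94 ± 0.06 with Astragalus, from 218, 222 and 242 to 113, 90.5 and 137 CPM and from 88.0, 86.7 and 84.4 to 43.2, 41.6 and 49.7 CPM. The inhibitor SERPINC1, antithrombin, rose by 0.21 ± 0.06 with Astragalus, and was at −0.09 by total counts. It was called in no other extract at this contrast. SERPIND1, heparin cofactor II, fell by 0.48 ± 0.06 with Cnidium, and SERPINF2, the inhibitor of plasmin, fell by 0.26 ± 0.05 there. SERPINA5, the protein C inhibitor, fell by 0.42 ± 0.06 with Sagunja-tang. F12 with Paeonia was at −0.39 ± 0.14, a call that ended with DESeq2 (adjusted p = 0.062), without the filter (0.1) and with the Paeonia groups fitted alone (0.066), and without replicate 2 at 20 (0.17), replicate 3 at 20 (0.054) or replicate 3 at 500 µg/mL (0.33).

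All 4 complement genes fell with Astragalus, where 35.3% of all genes fell, and with Cnidium, where 8.83% did. C5, the source of the C5a peptide and the membrane attack complex, went from 219.6, 225 and 231 to 97.2, 88.4 and 109 CPM with Astragalus and fell by 1.20 ± 0.05. CFI, the protease that inactivates C3b, went from 209.5, 201 and 212 to 93.7, 97.5 and 109 CPM and fell by 1.05 ± 0.04. C3 moved least, from 2801, 2638 and 2825 to 2230, 2222 and 2349 CPM, and fell by 0.28 ± 0.05. CFB, the protease of the alternative pathway, was called in 6 of 7 extracts, each time lower. CFB fell by 0.59 ± 0.04 with Astragalus, fell by 0.43 ± 0.05 with Sagunja-tang and fell by 0.40 ± 0.04 with Cnidium. The values were −0.32 ± 0.05 with Angelica, −0.25 ± 0.04 with Rehmannia and −0.25 ± 0.04 with Cinnamon, and with each of these fitted alone the adjusted p was 0.089, 0.16 and 0.066. With Paeonia CFB was not called at −0.12 ± 0.05.

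**Figure D4:**
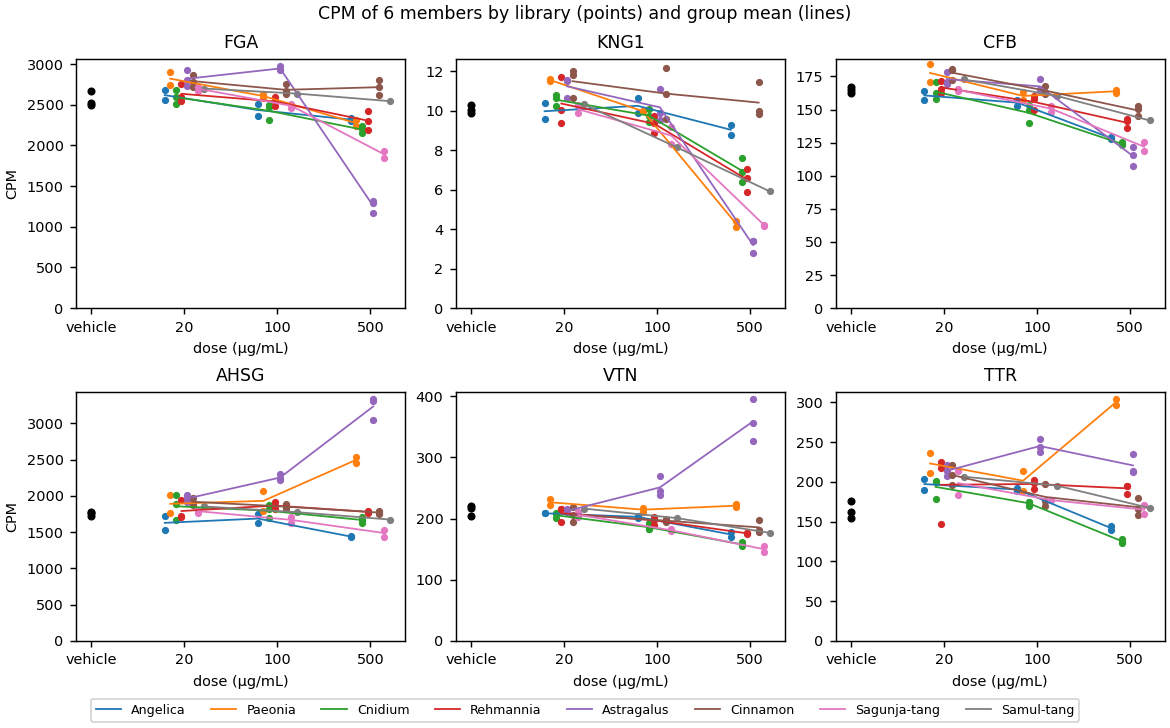
CPM of FGA, KNG1, CFB, AHSG, VTN and TTR in vehicle and at 20, 100 and 500 µg/mL of the 8 extracts (points: libraries; lines: group means). FGA, KNG1 and CFB are lower and AHSG and VTN higher at 500 µg/mL of Astragalus, and TTR is highest, at 297 and 304 CPM, with Paeonia at 500 µg/mL.

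Several of the smaller counts rested on the fit or on single libraries. For Angelica 1 of the 7 calls was made when its own groups were fitted alone, and the count was 3 and 4 without replicate 2 or 3 at 500 µg/mL and 2 and 3 without replicate 2 or 3 at 20 µg/mL. For Rehmannia 0 of 9 remained with its groups fitted alone, and 5 without replicate 1 or 2 at 500 or replicate 3 at 20 µg/mL, while 8 were called without replicate 1 at 20 µg/mL. For Cinnamon the counts were 1 of 3 with its groups fitted alone and 2 to 4 with 1 library left out. The call of ITIH1 there ended without replicate 2 at 500 (adjusted p = 0.18) or replicate 2 (0.12) or 3 (0.11) at 20 µg/mL. The Angelica falls were led by ITIH1 (−0.56 ± 0.09), TTR and ITIH3 (−0.37 ± 0.07), those of Rehmannia by KNG1, ITIH1 (−0.34 ± 0.07) and VTN (−0.25 ± 0.05), and those of Cinnamon by ITIH3, ITIH1 (−0.30 ± 0.07) and CFB.

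The intermediate dose showed a different picture. At 100 against 20 µg/mL of Astragalus 12 members rose and 2 fell (29.1% of all genes called, 13.9% higher and 15.2% lower), and no complement gene was called. Scaled by total counts the split was 3 higher and 8 lower. SERPINC1 rose by 0.34 ± 0.06, SERPINA3 rose by 0.29 ± 0.07 and HP rose by 0.27 ± 0.07, the last of which was at 0.16 with an adjusted p of 0.19 under total counts. PROC fell by 0.35 ± 0.05, from 68.8, 66.0 and 66.0 to 53.6, 53.0 and 51.3 CPM. F11 fell by 0.28 ± 0.09, with an adjusted p of 0.067 without replicate 1 at 100 µg/mL and 0.072 without replicate 3 at 20 µg/mL. VTN was already higher, at 270.0, 238 and 244 CPM (0.24 ± 0.05), as was AHSG at 2216, 2299 and 2240 CPM (0.20 ± 0.06 by TMM, 0.09 by total counts). FGA, at 2972, 2923 and 2946 CPM, was not called at 0.06 ± 0.04, nor was KNG1 at −0.14 ± 0.08 or AFP at −0.11 ± 0.06. Leaving out 1 library gave 8 to 14 calls, the fewest without replicate 1 at 100 µg/mL, and 9 without replicate 2 or 3 at 20 µg/mL.

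At 100 against 20 µg/mL of Paeonia edgeR called 0 of 16692 genes (0.00%), and so 0 members. At an unadjusted p below 0.05 there were 609 genes, 7 of them members, and DESeq2 called 3 genes and 0 members. TTR was at 214 and 189 CPM and KNG1 at 9.97 and 9.99 CPM at this dose. Their changes were −0.15 ± 0.10 and −0.21 ± 0.10.

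**Figure D5:**
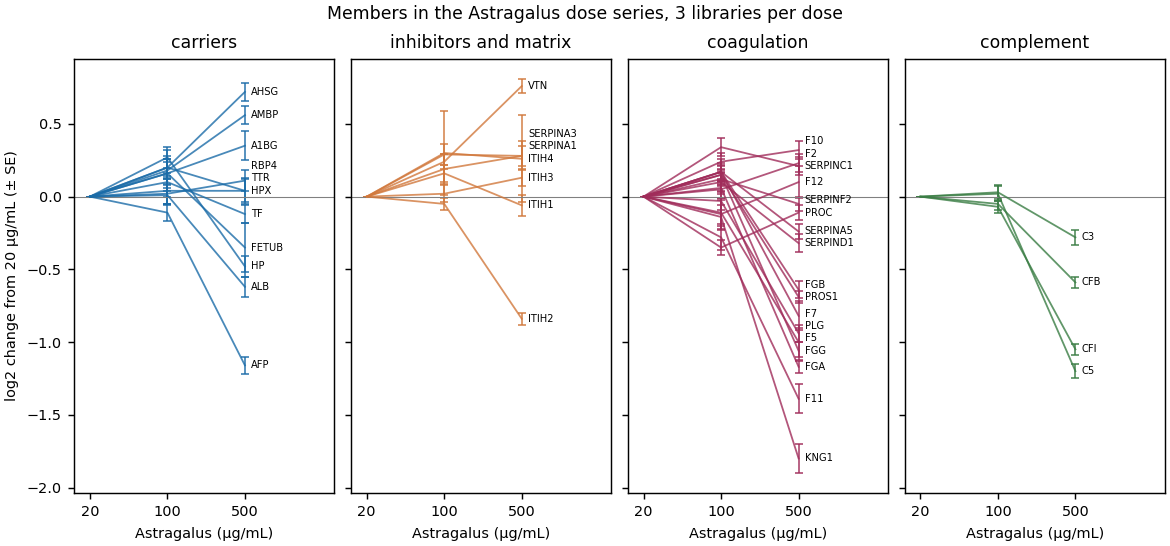
Log2 change from 20 µg/mL of each member at 100 and 500 µg/mL of Astragalus, in 4 panels by group (bars: SE; 3 libraries per dose). Complement members lie between −0.07 and 0.03 at 100 µg/mL and between −1.20 and −0.28 at 500 µg/mL.

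Against vehicle the same extracts were compared across code prefixes, so an effect of the prefix and of the extract cannot be told apart there. The 20 µg/mL groups already differed from vehicle. For the mean of the 7 extracts with replicates, 20 members were higher and 3 lower than vehicle (32.3% of all genes called, 15.5% higher and 16.8% lower), or 11 higher and 4 lower by total counts. F5 rose by 0.45 ± 0.07, F11 rose by 0.43 ± 0.07 and PLG rose by 0.39 ± 0.05 relative to vehicle, whereas HPX fell by 0.33 ± 0.07, A1BG fell by 0.21 ± 0.08 and HP fell by 0.15 ± 0.06. Without vehicle replicate 2 the adjusted p of A1BG was 0.24. That of HP lay between 0.068 and 0.19 without any 1 of the vehicle libraries, Paeonia replicate 2 or Angelica replicate 3. Vehicle libraries had 175, 162 and 175 CPM of F5 and 29.3, 31.1 and 30.6 CPM of HPX. Leaving out 1 library gave 16 to 24 calls. All comparisons with vehicle share the same 3 vehicle libraries.

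At 500 µg/mL against vehicle, 13 members were higher and 17 lower with Astragalus (69.8% of all genes called, 33.7% higher and 36.1% lower), or 5 higher and 27 lower by total counts. The largest falls were those of KNG1 (−1.65 ± 0.10), F11 (−1.07 ± 0.10) and FGA (−1.03 ± 0.04), and the largest rises those of AHSG (0.88 ± 0.06), VTN (0.75 ± 0.05) and AMBP (0.63 ± 0.06). With Paeonia 11 were higher and 10 lower (46.4% of all genes called, 23.3% higher and 23.0% lower), or 7 higher and 19 lower by total counts. KNG1 (−1.24 ± 0.11), HPX (−0.83 ± 0.11) and HP (−0.75 ± 0.08) fell most and ITIH3 (0.88 ± 0.07), TTR (0.87 ± 0.09) and SERPINA3 (0.83 ± 0.08) rose most. With Sagunja-tang 3 were higher and 17 lower (25.6% of all genes called, 13.8% higher and 11.8% lower), led by the falls of KNG1 (−1.26 ± 0.11), HPX (−1.04 ± 0.11) and ITIH1 (−0.91 ± 0.09).

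With Cnidium 1 member was higher and 17 were lower than vehicle (30.9% of all genes called, 15.8% higher and 15.0% lower), led by A1BG (−0.53 ± 0.10), KNG1 (−0.53 ± 0.08) and HPX (−0.51 ± 0.09). With Angelica 7 were higher and 10 lower (22.3% of all genes called, 11.4% higher and 10.9% lower), or 1 higher and 17 lower by total counts, led by the falls of A1BG (−0.53 ± 0.12) and HPX (−0.48 ± 0.10). With Rehmannia 4 were higher and 9 lower (20.0% of all genes called, 10.5% higher and 9.58% lower), or 1 higher and 14 lower by total counts, led by the falls of KNG1 (−0.63 ± 0.09) and HPX (−0.52 ± 0.09). With Cinnamon 3 were higher and 2 lower (14.7% of all genes called, 7.88% higher and 6.78% lower), or 0 higher and 2 lower by total counts. VTN (−0.20 ± 0.05) and CFB (−0.14 ± 0.04) were the lower ones, and both calls ended without Cinnamon replicate 2 at 500 µg/mL (adjusted p = 0.054 and 0.086). The counts fell to 10 without Angelica replicate 2 and 11 without replicate 3 at 500 µg/mL, to 8 for Rehmannia without vehicle replicate 2, and for Cinnamon to 1 without replicate 2 at 500 µg/mL, 3 without replicate 1 and 2 without vehicle replicate 2.

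Whether the dose changes themselves differed between extracts was tested by the difference of 2 changes in the same model. Astragalus and Cinnamon, which share a prefix, differed in 28 members (60.3% of all genes called, 29.5% higher and 30.7% lower), 12 with a higher and 16 with a lower change in Astragalus, or 2 higher and 23 lower by total counts. The largest differences were −1.67 ± 0.13 for KNG1, −1.23 ± 0.13 for F11 and −1.14 ± 0.07 for C5 on the lower side and 0.91 ± 0.07 for VTN, 0.84 ± 0.08 for AHSG and 0.54 ± 0.09 for AMBP on the higher side, the last with an adjusted p of 0.072 by total counts. Paeonia and Angelica, also of 1 prefix, differed in 14 members (21.9% of all genes called, 11.8% higher and 10.1% lower), 7 higher and 7 lower in Paeonia, or 4 higher and 9 lower by total counts. Here TTR (0.90 ± 0.15), ITIH3 (0.83 ± 0.10) and SERPINA3 (0.65 ± 0.12) changed in the higher and KNG1 (−1.30 ± 0.15), FETUB (−0.93 ± 0.31) and HP (−0.56 ± 0.13) in the lower direction. The FETUB call ended with these groups fitted alone (adjusted p = 0.064) and without replicate 2 of Paeonia at 500 (0.14) or 20 µg/mL (0.2), replicate 3 of Angelica at 500 (0.097) or its replicate 2 at 20 µg/mL (0.08). Cnidium and Rehmannia differed in 3 members (2.88% of all genes called, 1.19% higher and 1.70% lower), namely TTR (−0.59 ± 0.12), SERPINA3 (−0.45 ± 0.10) and TF (−0.32 ± 0.09), each lower in Cnidium. Without Rehmannia replicate 1 at 20 µg/mL these were −0.43, −0.39 and −0.39, all still called. Fitted alone, TTR had an adjusted p of 0.067 and TF of 0.15, and TF had 0.27 by total counts and 0.061 to 0.11 without 1 of 6 libraries (Cnidium replicate 1 at 500 and 2 or 3 at 20, Rehmannia replicate 2 or 3 at 500 and 2 at 20 µg/mL).

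KNG1, FGG and AFP fell with both Astragalus and Paeonia, but the changes differed in 29 members (48.4% of all genes called, 22.4% higher and 26.0% lower), 8 higher and 21 lower in Astragalus, or 2 higher and 22 lower by total counts. The changes of C5 (−1.06 ± 0.08), F7 (−0.96 ± 0.14) and F11 (−0.93 ± 0.15) were lower with Astragalus. With Paeonia C5 at −0.13 ± 0.06 and F7 at 0.13 ± 0.11 were not called, and F11 fell by 0.46 ± 0.11. F10 (0.88 ± 0.10), VTN (0.79 ± 0.08) and F12 (0.49 ± 0.18) differed the other way, F10 having fallen with Paeonia. The F12 difference ended by total counts (adjusted p = 0.19) and without replicate 2 at 20 (0.081) or 3 at 500 µg/mL (0.17) of Paeonia or replicate 1 at 500 µg/mL of Astragalus (0.073). These extracts carry different prefixes, but each change was taken within its own.

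Samul-tang had 1 library per dose, so its values have no replicate check and were not tested. At 20, 100 and 500 µg/mL KNG1 was at 10.3, 8.15 and 5.92 CPM, CFB at 173, 160.4 and 142 CPM and VTN at 216, 201 and 176 CPM. FGA was at 2700, 2638 and 2545 CPM, TTR at 207, 195 and 167 CPM and ALB at 11337, 10335 and 9541 CPM at the same doses. KNG1, CFB and VTN were thus lowest at 500 µg/mL.

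Other genes of the same pathways were taken from 3 further lists. Of 42 other plasma protein genes tested, 13 rose and 19 fell with Astragalus at 500 against 20 µg/mL (69.5% of all genes called, 34.2% higher and 35.3% lower), 9 and 12 with Paeonia (30.6% of all genes called, 16.8% higher and 13.9% lower), 1 and 18 with Cnidium (18.4% of all genes called, 9.56% higher and 8.83% lower), and 2 and 12 with Sagunja-tang (10.4% of all genes called, 5.70% higher and 4.73% lower). The share called with Astragalus was thus near that of all genes. PLAT, tissue plasminogen activator, rose by 1.28 ± 0.16 and MASP1, a protease of the lectin pathway of complement, rose by 1.20 ± 0.06 with Astragalus. F13B, the carrier subunit of the fibrin-linking factor XIII, fell by 2.61 ± 0.17 with Astragalus and fell by 1.25 ± 0.19 with Paeonia, and C8A, a chain of the membrane attack complex, fell by 1.85 ± 0.07 and fell by 1.03 ± 0.08. CPB2, which protects fibrin from lysis, fell by 1.08 ± 0.07 with Astragalus. PLAT and F13B were low, with vehicle means of 1.38 and 3.85 CPM. Over all libraries they ran from 0.703 to 3.41 and from 0.596 to 5.71 CPM.

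Of 8 genes for vitamin K recycling and secretory processing, 5 rose and 2 fell with Astragalus, where 34.2% of all genes rose and 35.3% fell. LMAN1 and MCFD2, the receptor pair that carries F5 out of the endoplasmic reticulum, fell by 0.55 ± 0.04 and by 0.30 ± 0.04 with Astragalus, where F5 also fell. With Paeonia they rose by 0.21 ± 0.05 and by 0.14 ± 0.05, although F5 was called lower there too. The F5 call with Paeonia rested on replicate 2 at 20 µg/mL (−0.28 without it) and replicate 3 at 500 µg/mL (−0.24 without it). MCFD2 also rose by 0.20 ± 0.04 with Cnidium. With Astragalus FURIN, a protease that cuts propeptides, rose by 0.75 ± 0.06 and VKORC1, the vitamin K reductase, rose by 0.60 ± 0.10. Of 12 regulators of the acute phase, 8 rose and 3 fell with Astragalus (69.5% of all genes called) and 6 and 2 with Paeonia (30.6%). IL6R, the interleukin-6 receptor, rose by 1.96 ± 0.05 with Astragalus and rose by 0.89 ± 0.07 with Paeonia, and CEBPB rose by 1.64 ± 0.14 and rose by 0.82 ± 0.17. CEBPA fell by 0.66 ± 0.08 and fell by 0.68 ± 0.10, in the same order. With Rehmannia, Cinnamon and Angelica 0 of these regulators were called by edgeR's test. Of the other plasma protein genes 2 were called with each (1.41%, 0.809% and 1.05% of all genes called, in the same order).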

How the data were processed

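Per the labels' protocols, total RNA with an RNA integrity number over 7 went into strand-marking mRNA libraries, read as 100 bp pairs. What the authors deposited is a table of expected counts by Ensembl identifier. The submitters' processing notes name FastQC 0.11.9, Trim Galore 0.6.5, STAR 2.7.3a, RSEM 1.3.3 and the GRCh38 genome; the annotation release is not given in the sources used here. Of 270 columns 60 were used and 210, which matched no sample label used here, were not. 8.21% of values were not whole (tolerance 1e-09), and all were rounded. Symbols came from GENCODE 29 and a gene name table, which named 57055 of 60675 identifiers holding 99.96% of counts.

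Groups follow the sample titles, which all carry the same batch label. Libraries carry code prefixes, one for each of the pairs Angelica with Paeonia, Cnidium with Rehmannia, Astragalus with Cinnamon and Sagunja-tang with Samul-tang, and another for vehicle. Counts were filtered by filterByExpr (16692 genes), scaled by TMM (factors 0.78 to 1.1) and fitted in 1 quasi-likelihood model of all 60 libraries in edgeR 4.0.16 under R 4.3.3, with 35 residual degrees of freedom. Tests were two-sided, with Benjamini-Hochberg adjustment within each comparison. The SE is the change divided by the square root of F, and intervals are 95%. Replicate pairs differed by a chi-square per degree of freedom of 2.81 to 63.22 over 48 pairs, above counting error, and none was identical. The fit was tested on simulated data. Alternatives were RLE scaling, total counts, no filter, DESeq2 1.42.0, only the groups compared, a replicate block and leaving out each library. Where that left an arm with 1 library, it was assumed to vary like the other groups. Members named were, besides a panel of 11, up to 3 of the largest called rises and falls per comparison, with others chosen as examples after their values were seen. Some genes of the other lists are not reported here. The members and lists were chosen with earlier results of these data known.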

Additional observations from a re-analysis of the deposited data

Results flagged for a closer look

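The change from 20 to 500 µg/mL differed between extracts, by the edgeR test of the difference itself, in 14 members for Paeonia against Angelica, 3 for Cnidium against Rehmannia, 28 for Astragalus against Cinnamon and 29 for Astragalus against Paeonia. The shares of all genes tested that differed were 21.9%, 2.88%, 60.3% and 48.4% in the same order. TTR, ITIH3 and SERPINA3 changed more positively with Paeonia than with Angelica, and KNG1, FETUB and HP more negatively. TTR, SERPINA3 and TF changed more negatively with Cnidium than with Rehmannia. The change of VTN was higher with Astragalus than with Cinnamon or Paeonia, and those of C5 and F11 were lower. No group had more than 3 libraries, so no rule for a single outlying library was applied. By the chi-square between replicates, replicate 1 of Rehmannia at 20 µg/mL stood apart, as described above.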

How the results depend on the processing

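Of the changes called in the fit reported or under an alternative, none turned its sign under an alternative other than scaling by total counts. With the compared groups fitted alone the number of members called went from 7 to 1 for Angelica 500 against 20, from 9 to 0 for Rehmannia 500 against 20, from 3 to 1 for Cinnamon 500 against 20 and from 3 to 1 for Cnidium minus Rehmannia. With DESeq2 the number of members called went from 7 to 11 for Angelica 500 against 20 and from 3 to 6 for Cinnamon 500 against 20. With total counts the number of members called went from 3 to 6 for Cinnamon 500 against 20, from 5 to 2 for Cinnamon 500 against vehicle and from 23 to 15 for the mean of the 20 µg/mL groups against vehicle. With a block for the replicate number the number of members called went from 3 to 5 for Cinnamon 500 against 20. Leaving out 1 library gave 2 to 4 calls for Angelica 500 against 20 (7 with all libraries), 5 to 9 calls for Rehmannia 500 against 20 (9 with all libraries), 8 to 14 calls for Astragalus 100 against 20 (14 with all libraries), 10 to 14 calls for Angelica 500 against vehicle (17 with all libraries), 8 to 13 calls for Rehmannia 500 against vehicle (13 with all libraries) and 1 to 6 calls for Cinnamon 500 against vehicle (5 with all libraries). Total counts turned the sign of 28 member changes (log2) that were called with TMM or with total counts: in Astragalus 500 against 20 these were TTR (−0.26), RBP4 (−0.20), HPX (−0.26), SERPINA1 (−0.03), SERPINA3 (−0.03), ITIH3 (−0.18), SERPINC1 (−0.09) and F2 (−0.07), in Paeonia 500 against vehicle these were TF (−0.01), RBP4 (−0.21), ITIH2 (−0.20), VTN (−0.16), SERPINA5 (−0.05), SERPINF2 (−0.19), PROS1 (−0.07) and PLG (−0.20), in Astragalus 500 against vehicle these were TF (−0.27), RBP4 (−0.23), A1BG (−0.06), ITIH1 (−0.17), SERPINC1 (−0.01), SERPIND1 (−0.34), SERPINF2 (−0.30) and F10 (−0.01), in the difference Astragalus minus Cinnamon these were RBP4 (−0.24), ITIH1 (−0.05), SERPINC1 (−0.00) and SERPINF2 (−0.27). Here that scaling moved the median of all genes down, and which scaling lies nearer the true levels was not tested. For the other counts above the cause was not tested. Of the single changes in the 21 comparisons, 6 calls ended with RLE scaling, 2 with the replicate block, 4 with DESeq2, 36 without the filter, 44 with the groups fitted alone and 67 with total counts. No clear pairing of the libraries by replicate number was seen. Residuals around means of 2 or 3 libraries are constrained, so they cannot exclude pairing. Within a code prefix the mean correlation of residuals was 0.020 for equal numbers (126 pairs) and −0.012 for others (216 pairs), and the block changed no count of calls by over 1.5 times except that given. Depth limits the low members: ITIH4, at most 2.28 CPM, had an SE of 0.30 with Astragalus at 500 against 20 µg/mL, beside 0.04 for FGA. Only 2 or 3 libraries per group were compared.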
